A study of Mus musculus with 8 samples.

Results

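The genes described here are mostly those of splicing factors and related RNA-binding proteins. The rule takes every gene of the array table whose symbol begins with Srsf, Hnrnp, Sf3a, Sf3b or Rbm followed by a digit. In all, 80 genes met this rule: 11 Srsf, 20 Hnrnp, 9 Sf3 and 40 Rbm genes. They were read from 79 of the 22206 probe sets, and a gene named in several rows was represented by the row with the highest mean log2 signal. The rule itself uses no difference between groups, but it was set with earlier results of these data known. By RefSeq, 1 of the genes is a long non-coding RNA (*Rbm46os*) and 1 a pseudogene (*Rbm8a2*), whose row also names *Rbm8a*. The tissue was the gastrocnemius (GAS), a fast hindlimb muscle, of C57/Bl6j males aged 14 weeks, into which an adeno-associated virus (AAV) had been injected 3 weeks earlier. In 4 animals, called A to D here, 1 leg received AAV sh-RNA MYTHO, a short hairpin RNA against the transcript of *D230025D16Rik* (*Mytho*), a gene linked to autophagy, and the opposite leg received AAV sh-RNA scrmb, a hairpin of scrambled sequence. In both viruses the hairpin was driven by the U6 promoter, which is not restricted to muscle fibres, and all animals were otherwise wild type, so the groups share the injection and the viral exposure and each array is 1 muscle. Values are log2 signals, in which a difference of 1 is a doubling, and all differences are MYTHO minus scrmb.

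Pre-mRNA splicing removes introns at the spliceosome. SR proteins, encoded by the Srsf genes, bind exonic enhancers through an RNA recognition motif and mostly favour inclusion of the exon, whereas hnRNP proteins coat nascent transcripts and often favour skipping. The SF3A and SF3B complexes are parts of the U2 snRNP that recognise the branch point. The RBM symbols are shared by proteins that only have an RNA-binding domain in common, among them the muscle splicing regulators RBM20, RBM24 and RBM38. Many SR and hnRNP genes are known to hold their own transcript levels in check through poison exons that send the transcript to decay. In striated muscle, splicing regulators set the isoforms of titin and other sarcomere proteins.

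The hairpin target was lower in every animal. In animals A to D, *D230025D16Rik* went from log2 signals of 11.35, 11.31, 10.78 and 11.05 in the scrmb leg to 8.16, 8.20, 8.80 and 8.08 in the MYTHO leg, a log2 fold change of -2.81. Median signals of the 8 arrays lay between 6.39 and 6.47. On the first principal component, with 28.2% of the variance, the scrmb array of animal D scored 3.31, apart from the other scrmb arrays at -45.4 to -25.7 and nearer to the MYTHO arrays at 11.7 to 40.4. Skeletal muscle genes were bright in all samples, with 2 of 6 at the ceiling of the scale, and 1 of the 6, *Myh1*, was higher in MYTHO muscle at an unadjusted p under 0.05 (log2 fold change 0.70). Genes of slow fibres differed between the groups: 7 of 8 were higher at that threshold, their log2 summed signal ran from 15.5 to 17.6 in scrmb and from 15.7 to 18.7 in MYTHO muscle, and the difference was 1.02, 2.27, 2.75 and 0.268 in animals A to D. Of the endothelial markers, 2 of 4 were higher (summed signal 13.3 to 13.6 against 13.8 to 14.0), and of the fibro-adipogenic markers 1 of 3 was lower (17.7 to 18.1 against 17.0 to 17.6). Of the satellite cell markers 1 of 4, *Cdh15*, was higher (log2 fold change 0.51), with groups that did not overlap, and the summed signal ran from 7.25 to 7.67 in scrmb and from 7.62 to 7.77 in MYTHO muscle. All 4 lay below the median signal of the array, as did 3 of 4 T cell markers. None of the adipocyte, blood, macrophage, T cell and Schwann cell markers was called in either direction, although the summed signal of some of these lists varied widely between muscles: the leg difference was 3.56, -3.62, -1.86 and 0.88 for adipocyte, -1.33, 0.41, 1.18 and 1.84 for blood and -0.44, -0.22, -1.71 and 0.47 for Schwann cell markers. The part of these cell type differences in the results on splicing genes was not tested, and in bulk muscle fewer cells of a type cannot be told apart from less RNA per cell.

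No member passed the threshold of an adjusted p under 0.05 in limma, in either direction, where 0.018% of all probe sets passed as lower and 0.00901% as higher. At an unadjusted p under 0.05, 9 of the 80 members were lower in MYTHO muscle and 0 were higher. The lower share of 11.25% stands beside 7.58% of all probe sets called lower, and the higher share of 0 beside 4.81%. Of the 67 members above the median mean signal, 11.9% were lower and 0 higher, beside 8.61% and 6.28% of all probe sets above it. The 9 lower members were 5 hnRNP genes (*Hnrnpa2b1*, *Hnrnpa3*, *Hnrnph1*, *Hnrnph3* and *Hnrnpd*), 1 SR gene (*Srsf5*) and 3 Rbm genes (*Rbm3*, *Rbm5* and *Rbm17*). With these genes tested among 22206 probe sets and adjusted p-values of 0.074 to 0.39, each difference below is a value that missed the adjusted threshold. The median log2 fold change of the members was -0.02 against -0.005 over all probe sets, and 43 of 80 members (53.8%) were below 0 against 50.6% of all probe sets, so the members as a whole were centred near 0. With median centring, which shifts all probe sets alike, the median of the members was 0.02 and that of all probe sets 0.035. When single arrays were left out, the median of the members ran from -0.07 without the MYTHO array of animal A to 0.01 without that of animal C. Its sign is therefore not settled.

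**Figure D1:**
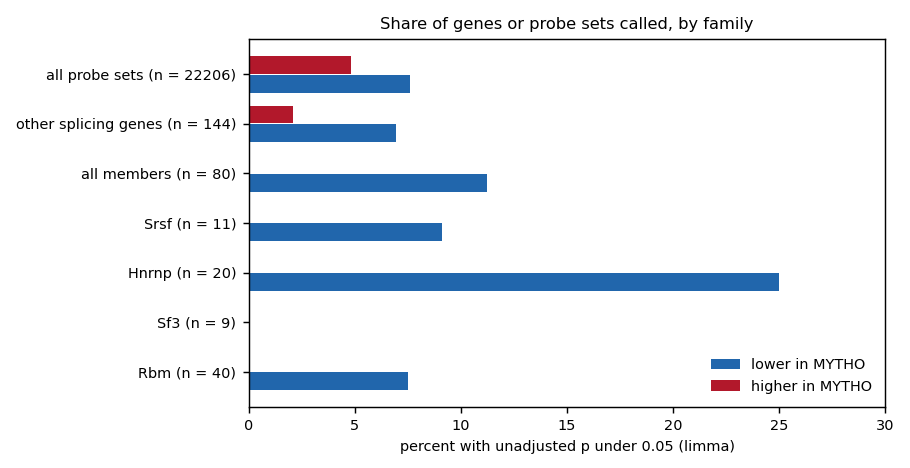
Percent of genes or probe sets with an unadjusted limma p under 0.05, by family, in the lower (blue) and higher (red) direction, with the number tested beside each name. Bars of the Hnrnp genes reach 25% lower, above 7.58% for all probe sets, while those of the Rbm genes stand at 7.5% lower and the Sf3 genes have no bar.

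By family, the called genes were mostly hnRNP genes. Of the 20 Hnrnp genes, 15 were below 0, with a median log2 fold change of -0.18 and 5 lower at an unadjusted p under 0.05. Of the 11 Srsf genes, 10 were below 0 with a median of -0.27, and 1 was lower. Of the 9 Sf3 genes, 8 were above 0 with a median of 0.12, and none was called. This median ran from 0.0425 without the scrmb array of animal C to 0.21 without that of animal D, and was also low without the scrmb array of animal A (0.045) or the MYTHO array of animal B (0.0717). The 40 Rbm genes had a median of 0.04, with 17 below 0 and 3 called lower, and this median ran from 0.01 with the filter on dim probe sets to 0.08 with median centring and from 0.0229 without the MYTHO array of animal A to 0.0608 without that of animal D. Whether the families differ from each other was not tested.

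**Figure D2:**
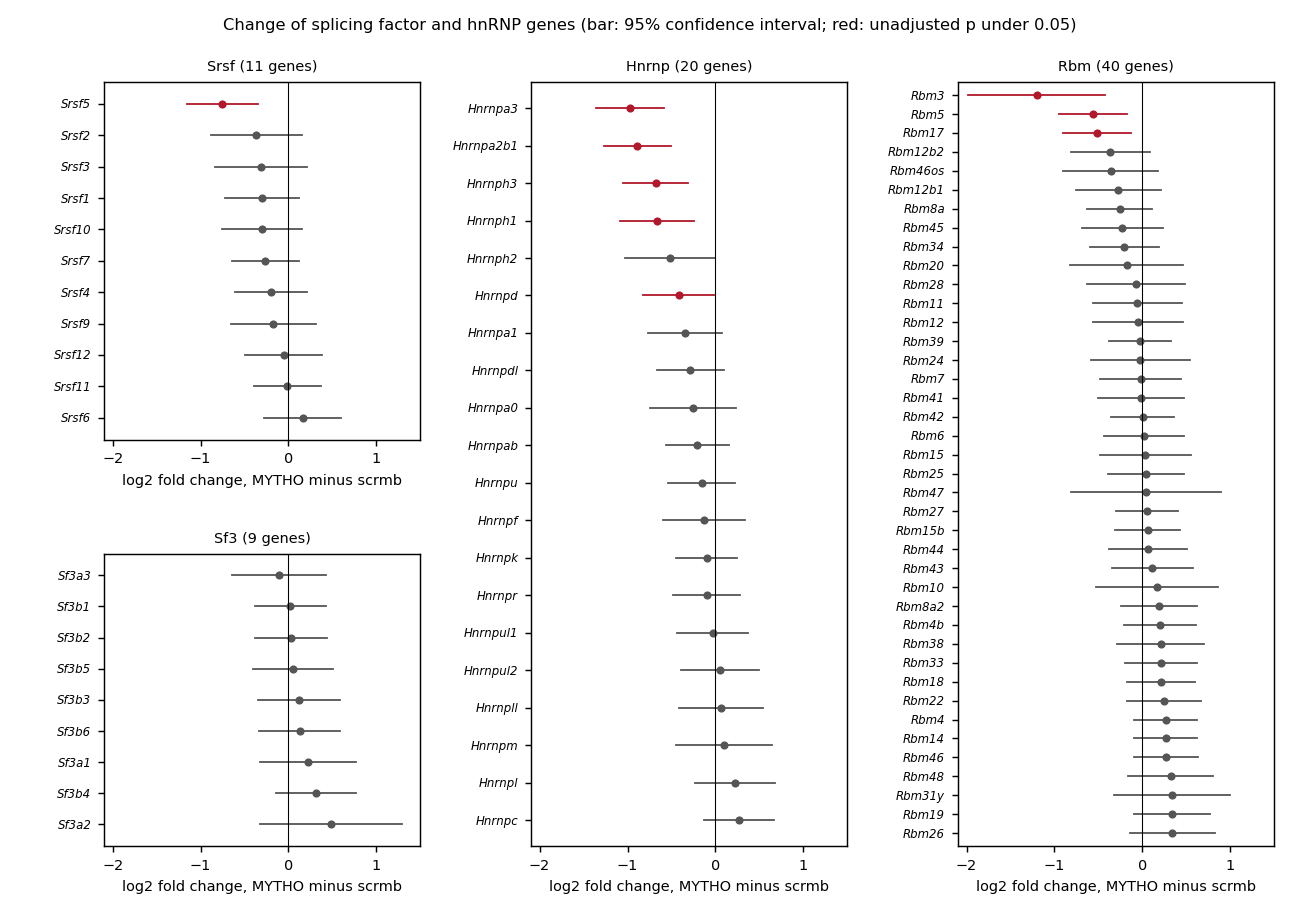
Log2 fold change (MYTHO minus scrmb) of the 80 members with its 95% confidence interval from limma, one panel per family, with members at an unadjusted p under 0.05 in red. The red points are all left of 0, and the lowest point is Rbm3 at -1.20.

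Of the 5 lower hnRNP genes, 4 were of the A/B and the H/F types. The A/B proteins bind AG-rich and UAG elements, take part in exon skipping, and in the case of hnRNP A2/B1 also in RNA trafficking. Promoter sequences of 2 A/B genes that were lower, of the lower SR gene and of the A/B paralogue *Hnrnpa1*, which missed the threshold, are shown so that their starts can be compared. They are RefSeq windows of 300 bases on GRCm38.p6, from 250 bases before to 50 after a transcription start, read on the strand of the gene, 5′ to 3′. Capitals mark TGACG or its reverse complement CGTCA, the core of the cAMP response element. The windows are *Hnrnpa2b1* at chr6:51469845-51470144 on the minus strand, the first listed of 2 windows of that gene, *Hnrnpa3* at chr2:75659009-75659308, *Srsf5* at chr12:80945249-80945548 and *Hnrnpa1* at chr15:103240147-103240446, all 3 on the plus strand.
Hnrnpa2b1: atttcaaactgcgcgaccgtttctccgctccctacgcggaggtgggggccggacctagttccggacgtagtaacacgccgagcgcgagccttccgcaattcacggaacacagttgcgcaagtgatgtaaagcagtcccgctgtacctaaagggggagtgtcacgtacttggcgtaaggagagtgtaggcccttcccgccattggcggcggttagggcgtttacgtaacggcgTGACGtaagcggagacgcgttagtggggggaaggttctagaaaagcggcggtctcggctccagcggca
Hnrnpa3: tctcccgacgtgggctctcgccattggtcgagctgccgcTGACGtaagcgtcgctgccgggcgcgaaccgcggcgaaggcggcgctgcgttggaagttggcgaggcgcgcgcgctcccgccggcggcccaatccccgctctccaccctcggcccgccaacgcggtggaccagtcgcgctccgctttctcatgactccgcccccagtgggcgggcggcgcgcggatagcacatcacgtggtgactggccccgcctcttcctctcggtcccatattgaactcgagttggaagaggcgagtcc
Srsf5: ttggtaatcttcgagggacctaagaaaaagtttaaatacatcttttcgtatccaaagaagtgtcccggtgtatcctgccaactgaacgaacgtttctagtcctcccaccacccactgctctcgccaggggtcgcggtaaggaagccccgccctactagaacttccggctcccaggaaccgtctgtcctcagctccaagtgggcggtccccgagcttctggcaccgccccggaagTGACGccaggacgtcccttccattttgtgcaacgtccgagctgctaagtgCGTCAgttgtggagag
Hnrnpa1: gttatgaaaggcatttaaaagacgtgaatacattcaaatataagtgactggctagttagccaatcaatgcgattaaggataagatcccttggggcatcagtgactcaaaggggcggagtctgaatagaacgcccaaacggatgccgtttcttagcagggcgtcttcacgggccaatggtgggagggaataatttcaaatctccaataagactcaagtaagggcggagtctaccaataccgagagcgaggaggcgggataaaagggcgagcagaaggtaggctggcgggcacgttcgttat

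The windows of *Hnrnpa2b1* and *Hnrnpa3* each hold 1 such core, that of *Srsf5* holds 2 and that of *Hnrnpa1* none. In *Hnrnpa2b1* and *Hnrnpa3* the core lies inside the same run of letters, TGACGTAAGCG. It was defined as the longest run around the core that these windows share, so their own matches follow from that choice. Searched on both strands after these windows had been read, it occurs in 12 of 27025 promoters. Of these, 3 are of members, and the third is *Srsf3*, which was not called. The shorter TGACG was found in 29 of 67 member windows (43.3%), in 21.0% of all promoters and in 23.8% of those of protein-coding genes. Member windows were also richer in G and C, with a median of 61.0% against 56.3% in protein-coding genes, and the part of this in the motif shares was not tested. The GC box GGGCGG was in 61.2% of member windows and 46.3% of protein-coding ones, the ETS core CCGGAAG in 23.9% and 11.9%, the CCAAT box CCAAT in 46.3% and 39.0%, the E-box CACGTG in 10.4% and 7.90%, and the TATA box TATAAA in 14.9% and 13.3%, each on both strands. In the 8 windows of lower members the counts were 6 for the GC box, 5 each for TGACG and the CCAAT box, 2 each for the ETS core and the E-box, and 0 for the TATA box. The motifs were picked with the sequences and the results in view, TGACGTAAGCG contains TGACG, and a match is only a description of letters.

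*Hnrnpa3* (chromosome 2, 75659105 to 75669407) had log2 signals of 14.82, 14.73, 15.20 and 14.72 in scrmb muscle, given here and below in the order of animals A to D, and of 14.00, 13.84, 14.00 and 13.74 in MYTHO muscle. All 4 MYTHO values were under the lowest scrmb value. The log2 fold change of -0.97 (SE 0.18, 95% interval -1.36 to -0.58) is 51.0% of the scrmb signal, at a limma adjusted p of 0.074. Its row also names Gm6793, and the array cannot separate the pair.

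*Hnrnpa2b1* (chromosome 6, 51460434 to 51470048) was at 15.57, 15.86, 15.95 and 15.55 in scrmb and at 14.69, 14.91, 14.85 and 14.93 in MYTHO muscle. The groups did not overlap here either, and the MYTHO values were closely grouped, with an SD of 0.11 (n = 4). Its log2 fold change of -0.89 ± 0.17 (SE, n = 4 per group) left 54.1% of the scrmb signal, with a limma adjusted p of 0.084. When eBayes was run with trend and robust, the adjusted p was 0.015 for *Hnrnpa2b1*, 0.013 for *Hnrnpa3* and 0.0496 for *Srsf5*, so these 3 passed under that variance model. *Hnrnpa3* also passed, at 0.0493, when the scrmb array of animal D was left out.

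*Hnrnpa1*, the founding A/B gene, was at 11.67, 11.14, 11.57 and 11.39 in scrmb and at 11.25, 11.29, 11.05 and 10.79 in MYTHO muscle. Its groups overlapped, as animal B was slightly higher in MYTHO, and the log2 fold change of -0.35 had a 95% interval of -0.77 to 0.07. Its row also names Gm10052. *Hnrnpa0*, an intronless relative, lay at -0.26 with an interval of -0.75 to 0.24. All 4 A/B genes were therefore below 0, with a median log2 fold change of -0.62, and 2 of them were called at the unadjusted threshold.

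The H/F proteins bind G-rich runs near splice sites. *Hnrnph1* (chromosome 11, 50375257 to 50386528) had log2 signals of 11.90, 12.09, 12.41 and 11.94 in scrmb and of 11.54, 11.28, 11.19 and 11.67 in MYTHO muscle. The groups were separate, and the gap between the legs was widest in animals B and C. The log2 fold change was -0.67 ± 0.19 (SE, adjusted p = 0.20, limma).

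*Hnrnph3* (chromosome 10, 63014664 to 63023980) was dim, with a mean below the median signal of 6.42 over all probe sets: 4.78, 5.21, 4.92 and 5.02 in scrmb and 4.39, 4.32, 4.30 and 4.20 in MYTHO muscle. Every MYTHO array was under every scrmb array, at a log2 fold change of -0.68 ± 0.17 (SE) and a limma adjusted p of 0.14. At so low a signal, no share of the scrmb level is given.

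*Hnrnph2*, on the X chromosome, lay just outside the unadjusted threshold, with a limma adjusted p of 0.40. Its scrmb values were 10.35, 11.48, 11.08 and 11.07 and its MYTHO values 10.34, 10.34, 10.74 and 10.50. It was lower in the MYTHO leg of all 4 animals, with differences from -1.14 in animal B to -0.01 in animal A, and it passed the unadjusted threshold in the fit with animal as a block. *Hnrnpf* had a log2 fold change of -0.13 with values of both groups interleaved.

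Of the D type genes, whose products bind AU-rich elements and act in mRNA decay as well, *Hnrnpd* was at 12.09, 12.27, 12.20 and 11.62 in scrmb and at 11.62, 11.67, 11.60 and 11.63 in MYTHO muscle. The MYTHO arrays were nearly equal, and the scrmb array of animal D lay at their level, so the groups overlapped. The log2 fold change of -0.42 was the member value closest inside the unadjusted threshold (limma adjusted p = 0.39), and it passed in 5 of 16 alternatives. *Hnrnpd* was named after its values were seen. *Hnrnpdl* and *Hnrnpab* lay at -0.29 and -0.21 without passing.

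None of the other hnRNP genes was called. *Hnrnpk*, which binds C-rich sequence, was at 15.92 to 16.13 in MYTHO and 16.07 to 16.20 in scrmb muscle, a log2 fold change of -0.10 with an interval of -0.44 to 0.24, at -0.18 with quantile normalization and -0.06 with median centring. *Hnrnpu*, a nuclear matrix protein, was lower in all 4 animals, with differences of -0.31 to -0.05, at a log2 fold change of -0.16 (adjusted p = 0.78, limma) that became -0.07 without the MYTHO array of animal B. *Hnrnpl* and *Hnrnpc*, whose products bind CA repeats and U tracts, lay at 0.22 and 0.27. The hnRNP genes outside the A/B, D, H/F and U types had a median of 0.08, with none of 6 called. These intervals leave room for changes as large as their ends.

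**Figure D3:**
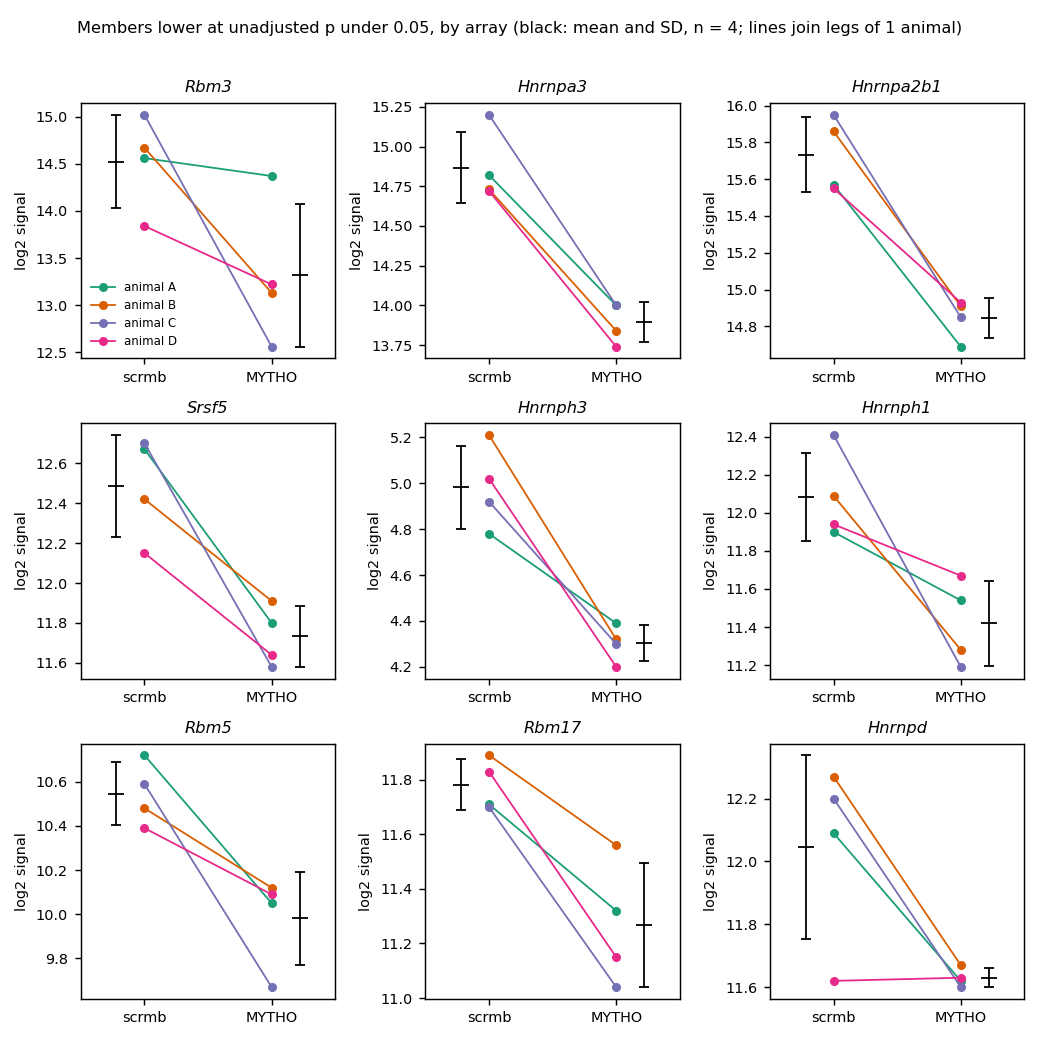
Log2 signals of the 9 members that were lower at an unadjusted p under 0.05, by group, with lines joining both legs of 1 animal and black bars for the mean and SD of 4 muscles. Groups are apart in 7 panels and overlap for Rbm3 and Hnrnpd, and the line of animal D is flat for Hnrnpd.

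Among the SR genes, *Srsf5* (chromosome 12, 80945495 to 80950507), first described as HRS, an early response gene of regenerating liver, was the 1 gene called. Its log2 signal was 12.67, 12.42, 12.70 and 12.15 in scrmb and 11.80, 11.91, 11.58 and 11.64 in MYTHO muscle. The groups did not overlap, and the lowest scrmb value was again that of animal D. The log2 fold change of -0.75 ± 0.19 (SE) had an interval of -1.16 to -0.35, equal to 59.4% of the scrmb signal (adjusted p = 0.14, limma).

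*Srsf1* and *Srsf2*, the classic SR proteins SF2/ASF and SC35, had log2 fold changes of -0.31 and -0.37. *Srsf1* was at 11.48, 11.18, 11.33 and 10.93 in scrmb and at 10.84, 11.17, 10.63 and 11.06 in MYTHO muscle, and *Srsf2* was at 10.66, 10.82, 10.24 and 9.85 against 10.24, 10.15, 10.08 and 9.64. The groups overlapped for both, although *Srsf2* was lower in the MYTHO leg of all 4 animals. *Srsf2* was called lower only without the scrmb array of animal D, at a log2 fold change of -0.55, and its value was -0.22 without the scrmb array of animal B and -0.24 without the MYTHO array of animal D. *Srsf3*, *Srsf10*, *Srsf7*, *Srsf4* and *Srsf9* lay between -0.32 and -0.17, *Srsf12* and *Srsf11* at -0.05 and -0.01, and *Srsf6* at 0.16, none of them called.

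The branch point complexes showed no called gene. *Sf3b1*, the scaffold of SF3B, had log2 signals of 9.96, 10.04, 9.95 and 9.74 in scrmb and 10.01, 10.04, 9.56 and 10.16 in MYTHO muscle. Its groups were interleaved, and the log2 fold change of 0.02 had an interval of -0.38 to 0.42. *Sf3b3* and *Sf3b6* lay at 0.12 and 0.13, with intervals of -0.35 to 0.58 and -0.33 to 0.59. The sign of *Sf3b1*, *Sf3b3* and *Sf3b6* turned when single arrays were left out. The highest Sf3 value was that of *Sf3a2*, at 0.49 with an interval of -0.32 to 1.29, where the scrmb array of animal C at 7.65 lay far under the other scrmb arrays at 9.15 to 9.78. *Sf3b4* was at 0.32 and was called higher only without the scrmb array of animal A.

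Of the Rbm genes, *Rbm3* on the X chromosome (8138975 to 8145880), a glycine-rich RNA-binding protein induced by mild cold, had the lowest fold change of all members. Its log2 signals were 14.56, 14.67, 15.02 and 13.84 in scrmb and 14.37, 13.13, 12.56 and 13.22 in MYTHO muscle. The MYTHO leg was lower in all 4 animals, with differences of -0.19 in animal A, -1.54 in B, -2.46 in C and -0.62 in D, but the groups overlapped because the MYTHO value of animal A was above the scrmb value of animal D. The log2 fold change was -1.20 ± 0.36 (SE), with an interval of -1.98 to -0.43, which is 43.5% of the scrmb signal (adjusted p = 0.21, limma). Leaving out single arrays moved it from -1.55 without the MYTHO array of animal A to -0.95 without that of animal C.

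*Cirbp*, the other cold-inducible RNA-binding protein and a member of the same glycine-rich type, is not among the 80 genes by its symbol but was in the list of hnRNP proteins under other symbols (it is also called hnRNP A18). Its log2 signals were 7.50, 8.12, 8.49 and 8.16 in scrmb and 7.15, 7.38, 6.19 and 6.38 in MYTHO muscle. Its groups did not overlap, and the MYTHO leg differed from the scrmb leg by -0.35, -0.74, -2.30 and -1.78 in animals A to D. The log2 fold change was -1.29 ± 0.30 (SE), or 40.8% of the scrmb signal, with a limma adjusted p of 0.12. In both genes the smallest difference was in animal A and the largest in animal C.

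*Rbm5*, a regulator of apoptosis gene splicing and a component of the early spliceosome, had log2 signals of 10.72, 10.48, 10.59 and 10.39 in scrmb and 10.05, 10.12, 9.67 and 10.09 in MYTHO muscle. All MYTHO values were under all scrmb values, and that of animal C was the lowest. The log2 fold change was -0.56 ± 0.18 (SE, adjusted p = 0.23, limma). Its relatives *Rbm6* and *Rbm10* lay at 0.02 and 0.17, and *Rbm10* was below the median signal. Whether *Rbm5* differed from *Rbm6* and *Rbm10* was not tested.

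*Rbm17*, which encodes the splicing factor SPF45, was at 11.71, 11.89, 11.70 and 11.83 in scrmb and at 11.32, 11.56, 11.04 and 11.15 in MYTHO muscle. The groups were separate, with all 4 scrmb arrays between 11.70 and 11.89. The log2 fold change was -0.52 ± 0.18 (SE), with a limma adjusted p of 0.27. It missed the unadjusted threshold only when both arrays of animal D were left out.

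None of the 3 Rbm genes known for muscle splicing or muscle differentiation was called. *Rbm20*, the regulator of titin splicing, was at 9.67, 9.96, 9.37 and 10.50 in scrmb and at 9.51, 10.41, 9.17 and 9.70 in MYTHO muscle, a log2 fold change of -0.18 with a wide interval of -0.82 to 0.47. *Rbm24* lay at -0.02 (interval -0.58 to 0.54) and *Rbm38* at 0.21 (-0.28 to 0.70). The groups overlapped in each of the 3. When single arrays were left out, the values of *Rbm20* and *Rbm24* changed sign and that of *Rbm38* ran from 0.06 without the scrmb array of animal C (0.09 without the MYTHO array of animal B) to 0.37 without the scrmb array of animal A. *Rbm39*, a relative of the splicing factor U2AF, lay at -0.03 with both groups between 11.84 and 12.09. The Rbm genes other than *Rbm3*, *Rbm5* and *Rbm17* lay between -0.36 (*Rbm12b2*) and 0.34, and 11 of the 40 were below the median signal of the arrays, as were 1 Srsf and 1 Hnrnp gene. These dim members include *Rbm46os*, *Rbm8a2* and the Y-linked *Rbm31y*.

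On the higher side, 2 members had groups that did not overlap, *Rbm4* and *Rbm14*, beside 2.59% of all probe sets, but both were read from 1 shared row that also names Gm21992. That row was at 10.73, 10.79, 10.58 and 10.81 in scrmb and at 11.15, 11.01, 10.86 and 10.95 in MYTHO muscle. The shift was small, at a log2 fold change of 0.27 with an interval of -0.09 to 0.62 and a limma adjusted p of 0.55. Rows naming *Rbm4* alone differed: 1 of them was at 0.47 and passed the unadjusted threshold (limma adjusted p = 0.36) and the other 3 were at 0.01, 0.03 and 0.18. *Rbm26* and *Rbm19* were the Rbm genes with the highest values, at 0.34 each, and both were higher in all 4 animals without passing. In all, 8 members were higher in every animal, against 8.94% of probe sets.

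On the lower side, groups did not overlap for 7 members (8.75%), against 3.87% of all probe sets, and 14 members (17.5%) were lower in every animal against 10.8%. The scrmb array of animal D was the lowest scrmb array for 6 of the 9 lower members. The difference was smallest in animal D for 4 of them, with a tie of animals B and D for 1 more, *Srsf5*. How often all probe sets show these patterns was not counted, so they cannot be called particular to the members. Among the lower members, *Rbm17* differed most in animal D (-0.68) and *Rbm3* differed least in animal A (-0.19). The slow fibre genes also differed least in animal D, and whether these patterns are linked was not tested. With animal as a block, 9 members were lower and 0 higher at an unadjusted p under 0.05, beside 7.66% and 4.94% of probe sets. Of the 9, 8 were shared with the unblocked fit, *Hnrnph2* came in and *Hnrnpd* dropped out. No member passed an adjusted p under 0.05 with the block. The counts without both arrays of animal D were 9 lower, with *Rbm12b2* in place of *Rbm17*, and 0 higher. On these 6 arrays, 8.06% of all probe sets were called lower and 5.41% higher. *Hnrnpa2b1*, *Hnrnpa3*, *Hnrnph1*, *Rbm3*, *Rbm5* and *Srsf5* kept an unadjusted p under 0.05 in all 16 alternatives in which each was fitted, and *Hnrnph3* in all 15.

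The rest of the splicing machinery was followed in 144 genes that carry other symbols, in 10 lists. None passed an adjusted p under 0.05. At an unadjusted p under 0.05, 3 were higher and 10 lower, which is 2.08% and 6.94%, both under the shares of 4.81% and 7.58% over all probe sets. The higher count was unstable, at 8 with quantile normalization or median centring, 1 without the scrmb array of animal C or the MYTHO array of animal B, 5 and 6 without the MYTHO arrays of animals D and C, and 9 without the scrmb array of animal D. The lower count was 5 without the scrmb or the MYTHO array of animal C and 6 without the scrmb array of animal B. The median log2 fold change was 0.00. The core snRNP lists gave few calls: none of 9 U1, 16 tri-snRNP and 23 Prp19 complex and catalytic genes was called, 2 of 14 U2 genes were called in opposite directions, and 1 of 15 Sm and LSm genes was lower. With animal as a block, the tri-snRNP gene *Txnl4a* also passed the unadjusted threshold as higher, at a log2 fold change of 0.57. *Lsm5*, part of the ring on U6 snRNA, was at 5.45, 5.85, 5.17 and 5.45 in scrmb and at 5.13, 4.58, 4.08 and 4.87 in MYTHO muscle. Its groups were apart at a low signal, with a log2 fold change of -0.82 (adjusted p = 0.21, limma).

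**Figure D4:**
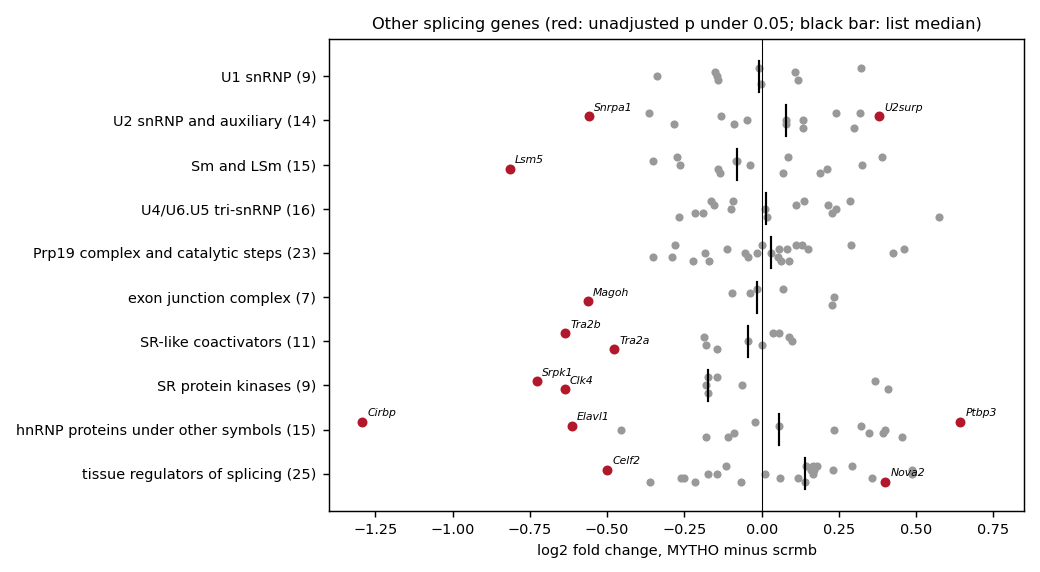
Log2 fold change (MYTHO minus scrmb) of 144 other splicing genes by list, with the number of genes beside each list, a black bar at each median and genes at an unadjusted p under 0.05 in red. List medians lie between -0.18 (SR protein kinases) and 0.14 (tissue regulators), and the farthest point is Cirbp at -1.29.

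The kinases and coactivators of SR proteins were described after their calls were seen. *Srpk1*, a kinase that phosphorylates SR proteins in the cytoplasm, was at 10.83, 11.35, 11.21 and 11.05 in scrmb and at 10.60, 9.97, 10.31 and 10.65 in MYTHO muscle. Its groups did not overlap, and the log2 fold change was -0.73 ± 0.21 (SE), with a limma adjusted p of 0.19. Of the 9 SR protein kinases, *Srpk1* and *Clk4* (-0.64) were lower and none higher. Of 11 SR-like coactivators, *Tra2b* (-0.64) and *Tra2a* (-0.48), the paralogues of Drosophila transformer-2, were lower and none was higher. Of 7 exon junction complex genes 1 was lower, *Magoh* (-0.56). The list of 15 hnRNP proteins under other symbols also takes in related RNA-binding proteins, such as HuR, the product of *Elavl1*. In it 2 genes were lower, *Cirbp* and *Elavl1* (-0.62), and 1 was higher. Of 25 tissue regulators of splicing 1 was lower, *Celf2* (-0.50), and 1 higher, and with animal as a block neither passed. The lower U2 gene was *Snrpa1* (-0.56).

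The higher genes of these lists were *Ptbp3* (0.64), *U2surp* (0.38) and *Nova2* (0.40), of which only *Ptbp3* also passed with animal as a block. *Ptbp3*, a paralogue of the polypyrimidine tract binding protein, was at 6.97, 7.48, 7.06 and 7.59 in scrmb and at 8.08, 8.05, 7.51 and 8.03 in MYTHO muscle. It was higher in all 4 animals, by 0.44 to 1.11, and its groups overlapped through the MYTHO array of animal C (adjusted p = 0.25, limma). *U2surp* was separate between groups, at 12.15 to 12.47 in scrmb and 12.60 to 12.84 in MYTHO muscle, and the neuronal regulator *Nova2* was dim at 5.41 to 6.19.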

How the data were processed

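GAS muscles were hybridised to Clariom S Mouse arrays. The authors deposited log2 signals made with Transcriptome Analysis Console 4.0.1 by SST-RMA at gene level, which includes quantile normalization and median polish, with annotation release 36 on mm10. Their own comparison columns (group averages, fold changes, p-values and false discovery rates) were not used. Differences were taken within probe sets. Signals of different probe sets were compared only to choose rows, rank brightness, mark dim rows, sum markers and take medians over genes. MYTHO and scrmb arrays, 4 each, were compared with limma 3.58.1 in R 4.3.3 (lmFit and eBayes, unpaired, two-sided), with Benjamini-Hochberg adjustment over 22206 probe sets. The number of arrays limits the precision. The fit was tested on simulated data.

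The members and lists were chosen with earlier results of these data known. Named genes were the 8 lowest and highest members at an unadjusted p under 0.05, the 3 brightest of each family, 10 textbook splicing or muscle genes, and the 3 highest and lowest of the other splicing genes called. Genes named beyond these were chosen after their values were seen. Animal numbers in the column names occur once per group and mark both legs of 1 animal, since scrmb virus went into the leg contralateral to MYTHO virus. They were the block. Deviations of the legs from the group means correlated at -0.00145 to 0.135. The labels number their replicates in another way, which matches no column. Alternatives were another normalization or median centring, a filter on dim probe sets, no saturated probe sets, trend and robust eBayes, the block, 1 probe set per gene, other choices of member rows, and leaving out arrays. Gene positions and promoters came from RefSeq on GRCm38.p6, the assembly of mm10. Windows were used for 67 of 80 members, and those of *Rbm3* and of 12 others are not shown or counted here. Promoters on chromosome 18, where *Rbm22* and *Rbm27* lie, were left out of all promoter counts.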

Additional observations from a re-analysis of the deposited data

Results flagged for a closer look

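In groups of 4 arrays, 66 were searched for an array far from the other 3, and 4 were found, where chance gives about 1 in 20. All 4 were the MYTHO array of animal C. *Rbm5* was at 9.67 there, under 10.05 to 10.12 on the other MYTHO arrays. The median signal over the 40 Rbm genes was 9.29 on that array against 9.66 to 9.72. This median ranks signals of different genes and is no change per gene. Within genes, the median Rbm leg difference in animal C was -0.05, beside -0.03 over all probe sets. *Ptbp3* was at 7.51 against 8.03 to 8.08. The target *D230025D16Rik* was at 8.80 against 8.08 to 8.20, the highest of the 4 MYTHO arrays. Without this array the log2 fold change was -0.46 for *Rbm5*, 0.78 for *Ptbp3* and -2.98 for *D230025D16Rik*.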

How the results depend on the processing

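Counts of members at an unadjusted p under 0.05 stayed at 8 to 11 lower and 0 to 1 higher when single arrays were left out, the 1 being *Sf3b4* without the scrmb array of animal A. At an adjusted p under 0.05, trend and robust eBayes gave 3 lower members, and leaving out single arrays gave 0 to 1. In the fit with animal as a replicate block 9 members were lower and 0 higher, and of the other splicing genes 9 were lower (without *Celf2*) and 2 higher (*Ptbp3* and *Txnl4a*, without *U2surp* and *Nova2*); apart from *Hnrnph2* (in) and *Hnrnpd* (out), the block changed no call of a member. For the other splicing genes, the 3 higher calls became 8 with quantile normalization and 8 with median centring, 1 without saturated probe sets and 7 without both arrays of animal D (an alternative chosen after seeing the data), and 1 to 9 when single arrays were left out, with 5 to 9 lower. The median of all probe sets moved from -0.005 to 0.0199 (quantile) and 0.035 (median centring), and the cause of these moves was not tested. Signs turned for genes near 0: *Rbm39* (0.01) and *Rbm24* (0.0175) with median centring, *Sf3b1* (-0.11), *Rbm20* (0.03) and *Rbm24* (0.00333) without both arrays of animal D, and, when single arrays were left out, *Sf3b1* (-0.0525 to 0.148), *Sf3b3* (-0.0225 to 0.248), *Sf3b6* (-0.0325 to 0.271), *Rbm20* (-0.415 to 0.0308), *Rbm24* (-0.17 to 0.144) and *Rbm39* (-0.0817 to 0.00833). Of the values of named genes under alternatives, 423 kept their direction and their side of the adjusted threshold, 18 turned sign and 5 newly passed it (*Hnrnpa3*, *Hnrnpa2b1*, *Srsf5* and *Cirbp* under trend and robust eBayes, and *Hnrnpa3* without the scrmb array of animal D). Of the members, 13 lay below the median signal.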
